A study of Mus musculus with 18 samples.

Results

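The fragments described here are internal tRNA-derived fragments (i-tRF) of mitochondrial tRNA-arginine (mt-TR) that begin past nt 1 and end 4 to 18 nt before the mature 3′ end. They were chosen by these positions alone, as the rows of the count table with at least 1 leading dash and 4 to 18 trailing dashes. They made up 340 of the 679 sequences listed (50.1%) but only 1923 of 121943 reads (1.58%), so that most were rare. Of the 340 rows, 106 held a single read, 46 held 10 or more, the median was 3 reads and the highest was 123. Small RNA came from the livers of healthy adult female mice of 6 strains, whose 2-letter names give the strain of the nuclear genome and then that of the mitochondrial DNA (mtDNA). C stands for the C57BL/6J strain, H denotes C3H/HeN, and F denotes FVB/NJ. Wild-type animals (CC, FF and HH) came from commercial vendors. HC, CH and CF were mitochondrial-nuclear exchange (MNX) mice from in-house colonies made by pronuclear transfer, in which the nucleus of one strain is combined with the mtDNA of another. Each strain gave 3 libraries of pooled, pretreated RNA, and each mtDNA type was therefore present in 6 libraries.

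Mature tRNA folds into a cloverleaf whose T arm, a stem closed by a loop, is followed by the strand of the acceptor stem that pairs with the 5′ end, then by an unpaired discriminator base and the CCA tail to which the amino acid is attached. Nucleases can cut tRNA into shorter RNA. Fragments that keep the first base are named 5′-tRF, and those that lack both ends are named i-tRF. In the mitochondrion the CCA tail is added after transcription, and mt-TR serves the translation of the proteins that mtDNA encodes.

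The mt-Tr gene (ENSMUSG00000064361.1), annotated as a tRNA gene, lies at chrM:9808-9875 on the plus strand of mm10. The types differ by bases inserted in a T run and an A run of the 5′ region, as the mature sequences show. The capitals mark the bases in which the fragments end, and the lower case base before them is the last base of the common cleavage site, where the most abundant fragments of mt-TR end.

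mtDNA C, 71 nt: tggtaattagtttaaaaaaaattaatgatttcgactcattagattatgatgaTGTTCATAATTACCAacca
mtDNA F, 72 nt: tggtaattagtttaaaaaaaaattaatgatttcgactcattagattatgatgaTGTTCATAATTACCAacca
mtDNA H, 73 nt: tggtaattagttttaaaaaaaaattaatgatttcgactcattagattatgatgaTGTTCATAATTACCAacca

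All 15 end positions are therefore the same letters in the 3 types. In C they run from nt 53 to nt 67, which is position 9860 to 9874 of chromosome M. By complementarity, ends 16 to 18 nt before the mature end lie in the T loop past the site, ends 11 to 15 nt before it in the 3′ strand of the T stem, and ends 4 to 10 nt before it in the 3′ strand of the acceptor stem. The last 4 letters of the outermost fragments, ACCA, are also the last 4 letters of mature mt-TR.

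The following fragments are shown with the bases past the site in capitals. Each, or its homologue in another mtDNA type, was among the 3 highest of a type by mean share. Those that end 14 or 4 nt before the mature end carry an end at which differences between types were called. The F fragment ends 13 nt before the mature end and the C fragment that begins at a T ends 17 nt before it. At neither of these ends was a difference between types called. The C fragments begin at the first A of the A run (chrM:9821-9864) or at the first T of the T run (chrM:9818-9861).

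mtDNA C, nt 14 to 57: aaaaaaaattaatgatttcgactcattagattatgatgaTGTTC
mtDNA C, nt 11 to 54 (homologous to one of the 3 highest in F): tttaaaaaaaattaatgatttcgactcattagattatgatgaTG
mtDNA F, nt 11 to 59: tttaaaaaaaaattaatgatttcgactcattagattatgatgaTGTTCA
mtDNA H, nt 15 to 69: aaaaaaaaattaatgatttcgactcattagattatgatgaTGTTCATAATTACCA
mtDNA H, nt 20 to 69: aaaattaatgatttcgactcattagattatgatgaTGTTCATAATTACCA

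Reads of 40 to 69 nt were held, and these i-tRF spanned 40 to 68 nt. A late start together with an early end gives a read shorter than 40 nt, which could not be listed. Library totals ranged from 189 to 23805 reads, and 4 libraries, all of MNX strains, held fewer than 1000. No 2 libraries were identical. CH replicates 1 and 2, with 191 and 232 reads, agreed within sampling noise (chi-square test, p = 0.0847) where the other pairs within groups did not, and they were kept as separate libraries, with their merging given as an alternative. The labels name no separate animals for the libraries. The p-values therefore set differences against the variation between libraries and do not speak to variation between animals. The permutation tests treat libraries as exchangeable although their totals differ.

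Abundance was first compared as the share of all table reads in a library. In CC the i-tRF made up 2.71%, 1.38% and 0.811% of reads in replicates 1 to 3 (416, 240 and 193 reads). In HC the shares were 7.37%, 0.452% and 1.01%, from 54, 7 and 80 reads. HC replicate 1 thus held the highest share of the 18 libraries (95% Wilson interval 5.69 to 9.49) and HC replicate 2 one of the lowest. The mtDNA H libraries lay higher as a group, with 4.28%, 2.30% and 4.53% in HH and 2.62%, 2.16% and 4.40% in CH. CH replicates 1 and 2 rested on 5 reads each, and the interval of the first ran from 1.12 to 5.98. In FF the shares were 0.421%, 0.735% and 1.3%, and in CF 2.92%, 1.36% and 1.06%. CF replicate 1 was the only F library within the range of the H libraries. In replicates 1 to 3, library totals were 4233, 6596 and 3578 reads in HH and 15335, 17436 and 23805 in CC. In FF they were 14476, 12647 and 6548. Within each of these wild-type strains the share was lower where the total was higher, which did not hold within the MNX strains. An effect of the library total on the differences between mtDNA types was not tested.

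By mtDNA type the share was 3.38% ± 1.13 in H, 2.29% ± 2.61 in C and 1.3% ± 0.87 in F (SD, n = 6). The difference F minus H was -2.08 percentage points (two-sided exact permutation test, p = 0.00866, adjusted over the 21 mtDNA tests to 0.0455). C minus H was -1.09 (exact permutation test, adjusted p = 0.615) and C minus F 0.991 (exact permutation test, adjusted p = 0.641), neither larger than the spread between libraries. The F and H call lay close to the threshold. It was lost in 13 of the 18 tests that left out a library. The tests without CC replicate 1, HC replicate 1, HH replicate 2, CH replicate 1 or CF replicate 1 kept it. Differences ran from -2.41 to -1.85 (exact permutation tests, adjusted p from 0.0303 to 0.0682). Leaving out CC replicate 2 or 3 or HC replicate 2 or 3 kept the difference at -2.08. There the call was lost only through the adjustment over the 21 tests. As a share of reads that start past nt 1, which removes the 5′-tRF from the denominator, the difference was -1.12 (exact permutation test, adjusted p = 0.467, over all alternatives 0.0303 to 0.467).

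The end of the fragments was examined next. Of the 1923 reads, 494 (25.7%) ended in the T loop, 718 (37.3%) in the T stem and 711 (37.0%) in the acceptor strand. Within these regions a few positions held most reads. The end 14 nt before the mature end held 387, the end 4 nt before it 281, and those 17, 5 and 18 nt before it 225, 216 and 199. The end 6 nt before the mature end, next to a heavily used position, held 17. Reads pooled by type were most frequent at different positions. In C, 29.2% of 990 reads ended 14 nt before the mature end, in H 28.5% of 607 ended 4 nt before it, and in F 22.7% of 326 ended 17 nt before it. The wild-type strain supplied most reads of each type, 849 in CC, 495 in HH and 239 in FF, so the pooled profiles are mostly theirs. In HH 32.1% of reads ended 4 nt before the mature end, but in CH it was 12.5%, with 14 reads beside 15 each at the ends 5 and 14 nt before it. In CF the end 17 nt before the mature end held 8 of 87 reads, fewer than the 12 at 18 nt and the 11 at 4 nt.

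Ends 4 nt before the mature end, which leave the letters ACCA at the 3′ end, set H apart. HH libraries held 69, 42 and 48 such reads and CH libraries 2, 3 and 9, which is 1.63%, 0.637% and 1.34% of reads in HH and 1.05%, 1.29% and 0.388% in CH. Libraries of C held 0.111%, 0.155% and 0.0378% in CC and 0.546%, 0.0646% and 0.101% in HC. Those of F held 0.0138%, 0.134% and 0.183% in FF and 0.496%, 0.0847% and 0 in CF. All H libraries but CH replicate 3 lay above every C and F library, and CH replicate 3 lay below HC replicate 1 and CF replicate 1 only. In edgeR, C was below H by a log2 fold change of -2.82 ± 0.65 (SE, adjusted p = 0.00197). F was below H by -2.48 ± 0.65 (SE, edgeR adjusted p = 0.00391). Both were called in all 23 alternatives run, with log2 fold changes from -3.23 to -2.52 and from -3.35 to -1.99 (edgeR or DESeq2, highest adjusted p 0.00703 and 0.0146). These varied the scaling, method, filter, replicate block and libraries. They did not vary the starts included or the reads used as denominator. C and F differed by -0.34 ± 0.64 (edgeR, adjusted p = 0.900).

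Ends 14 nt before the mature end lie inside the T stem, where a C is followed by an A. C libraries held 116, 83 and 65 such reads in CC and 11, 3 and 11 in HC, or from 0.139% to 1.5% of reads. F libraries held 6, 5 and 0 in FF and 2, 6 and 1 in CF, at most 0.254% except in CF replicate 3, where 1 of 189 reads is 0.529%. The lowest F values were those of FF, at 0.0414%, 0.0395% and 0, and every CF library lay above them, at 0.110%, 0.254% and 0.529%. CF against FF was 2.75 ± 1.05 and not called (SE, edgeR adjusted p = 0.125). H libraries held 19, 17 and 27 in HH and 0, 0 and 15 in CH. The log2 fold change was 2.55 ± 0.66 for C against F (SE, edgeR adjusted p = 0.0155) and -2.44 ± 0.68 for F against H (edgeR adjusted p = 0.00635). Without HC replicate 1, C against F was 1.76 and not called (edgeR adjusted p = 0.0734). Without CH replicate 3, both CH libraries left were at 0 and the fitted F against H value of 1.51 is no measure of size. C and H were 0.11 ± 0.61 apart (edgeR, adjusted p = 0.914).

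The end 5 nt before the mature end held most of its reads in CC, the deepest libraries, with 74, 22 and 34 reads, against 3, 0 and 11 in HC, 8, 16 and 10 in HH, 1, 0 and 14 in CH, 5, 7 and 3 in FF and 7, 1 and 0 in CF. As a share of reads it was highest in CH replicate 3, at 0.604%, followed by 0.524% in CH replicate 1 from 1 read and 0.483% in CC replicate 1. F was below H by edgeR, at -1.84 ± 0.67 (SE, adjusted p = 0.0360). That call was lost under TMM scaling (-1.33, adjusted p = 0.110), with no filter on low counts (-1.83), and without HH replicate 3, CH replicate 1, CH replicate 3, FF replicate 1, FF replicate 2 or CF replicate 2, where log2 fold changes were -1.77, -1.82, -1.35, -1.74, -1.92 and -1.47 in edgeR. For the T loop ends 17 and 18 nt before the mature end no difference between types was called. F against H gave -0.25 ± 0.65 and -0.58 ± 0.66 (SE, edgeR adjusted p = 0.930 and 0.787).

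Across all ends, 7 of the 15 pools of these i-tRF passed the filter on low counts, which means that 8 were not tested. For C against H, 1 of 7 was called, where 10% of the 40 end pools of the whole table were called. For F against H it was 3 of 7 (25.0% of all end pools), and for C against F 1 of 7 (2.5%). The median log2 fold change of the 7 was -0.81 for C against H, -0.94 for F against H and 0.01 for C against F, beside -0.20, -0.06 and -0.12 for all end pools. These 3 comparisons draw on shared libraries.

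Shares of reads by region gave a like picture for the acceptor strand. Acceptor-ended i-tRF made up 1.89% ± 0.50 of reads in H, 0.684% ± 0.776 in C and 0.390% ± 0.502 in F (SD, n = 6). Values in H ran from 1.20% to 2.46%. Only HC replicate 1 at 2.18% and CF replicate 1 at 1.38% reached that range in the other types. F minus H was -1.50 percentage points (p = 0.00433, and adjusted p = 0.0455 in the exact permutation test) and C minus H -1.20 (exact permutation test, p = 0.0152, adjusted p = 0.0606). The F call was lost without HH replicate 1, HH replicate 3 or CH replicate 2 (-1.38, -1.39 and -1.53), and C against H was called without HC replicate 1 (-1.50, exact permutation test, adjusted p = 0.0227). With ends 5 to 17 nt before the mature end only, F minus H was -0.593 (exact permutation test, adjusted p = 0.197), so the difference lay mainly in the outermost end. With starts up to the first A it was -0.80 (exact permutation test, adjusted p = 0.0909), and in libraries with 1000 reads or more -1.54 (exact permutation test, adjusted p = 0.0556). For T stem ends and T loop ends, none of the 6 differences between types exceeded the spread between libraries (exact permutation tests, smallest adjusted p 0.380).

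The 5′ end of the fragments was then described. Starts before the T run, at nt 2 to 10, held 572 reads (29.7%). The first base of the A run held 414 and the first base of the T run 350, while later bases of those runs held 269 and 268, and bases past the runs 50. Single positions in nt 2 to 10 were led by nt 2 with 131 reads and nt 7, the last base of the acceptor 5′ strand, with 119. First-A starts were frequent in CC, with 152, 36 and 79 reads (0.991%, 0.206% and 0.332%), and were 1, 0 and 16 in HC. In H they were present in every library, at 0.431% to 1.05%, while F libraries held at most 0.165%. The limits of the H range rest on 1 read in CH replicate 2 and 2 reads in CH replicate 1. Starts at later A bases made up 1.39%, 0.561% and 1.48% of reads in HH and at most 0.682% in any other library.

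Start and end went together in some fragments. Of 284 first-A reads in C, 117 ended 14 nt and 71 ended 5 nt before the mature end. The fragment from nt 14 to 57 of C, shown above, had the most reads of all. It held 63, 17 and 35 reads in CC, 1, 0 and 1 in HC, and its letters were read 1 time in F and 5 times in H. In H, 88 reads began at a later A and ended 4 nt before the mature end, against 28 in C and 20 in F. The H fragment from nt 15 to 69 had 9, 6 and 4 reads in HH and 1 in each CH library, and its homologous F fragment had 2 reads in each of FF replicates 2 and 3. C has no base homologous to its start when the gaps are placed at the left of the runs. The fragment from nt 20 to 69 of H had 10, 3 and 3 reads in HH, 1, 0 and 1 in CH, 5 in all C libraries and 0 in F. In F the leading fragment by mean share, nt 11 to 59, rested on 10 reads. Its mean was 0.126% ± 0.201 (SD, n = 6), to which 1 read of CF replicate 3 alone, 0.529% of that library, contributed most.

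The remaining named fragments were as sparse. The one that begins at the first T of C and ends 17 nt before the mature end, shown above, had 16, 17 and 6 reads in CC, 6, 9 and 5 in FF and 2 in all H libraries. Its counterparts ending 18, 16 and 14 nt before the mature end had 30, 20 and 48 reads in C. In H the fragment that begins at the extra T of its longer T run and ends 18 nt before the mature end held 15 reads, with 6, 2 and 5 in HH. The H fragment from nt 17 to 69 held 17. Of the fragments tested singly, 0 of these i-tRF passed the filter in any comparison, so their values carry no test. Of the 67 fragments of the table that did, 44.8% were called for C against H, 41.8% for F against H, 1.49% for C against F, 0.0% for HC against CC and CH against HH and 34.3% for CF against FF.

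As shares of the i-tRF themselves, starts at nt 2 to 10 made up 15.1% ± 12.3 in H, 33.2% ± 6.8 in C and 39.3% ± 21.2 in F (SD, n = 6). C ranged from 25.2% to 42.9%. HH libraries lay at 17.1%, 21.7% and 22.2%, and CH at 0, 0 and 29.4%, with the values of 0 from libraries of 5 such reads. FF libraries lay close together at 49.2%, 49.5% and 50.6%. C minus H was 18.1 percentage points (p = 0.00649, and adjusted p = 0.0455 in the exact permutation test). Restricted to the 14 libraries with 1000 reads or more, the difference fell to 9.41 (exact permutation test over 126 arrangements, adjusted p = 0.0897). The call was also lost without any of CC replicates 2 and 3, HC replicates 1, 2 and 3, HH replicates 1 and 3 and CH replicates 1 and 2 (15.1 to 19.5 points). F minus H was 24.2 (exact permutation test, adjusted p = 0.123) and passed without CF replicate 3, which held 2 i-tRF reads (32.1, exact permutation test, adjusted p = 0.0227).

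Start positions were also pooled over ends in an alignment of the 3 types, and 5 pools whose first base is in all 3 types passed the filter. For C against H, 0 of 5 were called by edgeR, with 1 at an unadjusted p under 0.05, where 56.9% of the 51 start pools of the table were called. DESeq2 called 2. Of the same 5 pools, 0 were called in 17 of the 18 fits that left out a library and 2 without HC replicate 1. Those fits tested 2 to 5 further pools, among which position 17, a later A, was called in each. It did not pass the filter with all libraries, and its highest shares were in H libraries (0.431% in CH replicate 2 and 0.307% in HH replicate 3). Its calls are therefore no support for a difference, and the fits share nearly all libraries. For F against H, 2 of 5 were called (52.9% of all). These were alignment positions 13 and 14 at -1.70 ± 0.73 and -1.95 ± 0.71 (SE, edgeR adjusted p = 0.0486 and 0.0212). The median of all start pools was -1.48, and under DESeq2 the values were 0.16 and 0.10, close to 0. Position 13 was called only without HC replicate 1, HC replicate 3, HH replicate 2 or FF replicate 3, and the call at position 14 was lost without HH replicate 1, HH replicate 3, CH replicate 3, FF replicate 1, FF replicate 2, CF replicate 1, CF replicate 2 or CF replicate 3. Without CH replicate 3 both turned sign, to 2.0 and 1.75. For C against F, 1 of 5 was called (3.92% of all), at position 16 with 2.50 ± 0.70 (SE, edgeR adjusted p = 0.0170). It was lost without CC replicate 1 (2.03), HC replicate 3 (1.80), FF replicate 1, FF replicate 2 or CF replicate 2. That position is the first A in C and the second A in F. With the gaps at the right of the runs, where the first A of every type shares a position, C against F was 1.35 (edgeR adjusted p = 0.852) and F against H -2.63 (edgeR adjusted p = 0.00392). This placement was fitted with all libraries only. The share of all start pools called under it is not given here, so its call is no result about the fragments.

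The i-tRF were compared with the 5′-tRF that end at the same 15 positions, which held 4544 reads. Internal starts made up 53.9% ± 15.4 of reads with these ends in H, 32.1% ± 12.4 in C and 21.8% ± 12.5 in F (SD, n = 6). HH libraries lay at 52.6%, 42.5% and 42.6% and CH libraries at 55.6%, 83.3% and 46.8%. In F the values were 10.5%, 13.4% and 17.6% for FF and 39.8%, 35.2% and 14.3% for CF, all below the lowest H library. F minus H was -32.1 percentage points (p = 0.00216, the smallest it can give, and adjusted p = 0.0455 in the exact permutation test). C minus H was -21.8 (exact permutation test, p = 0.0173, adjusted p = 0.0606). The F call was lost without HH replicate 1, HH replicate 3 or CH replicate 2 (-32.4, -34.3 and -26.2), and C was called against H without HC replicate 1 (-26.1, exact permutation test, adjusted p = 0.0227). With starts up to the first A, which give a read of listed length at every end, F minus H was -26.1 (exact permutation test, adjusted p = 0.0909).

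Internal and 5′ starts also divided the end positions differently. At the end 4 nt before the mature end, 281 internal reads stood beside 13 from nt 1, so that 95.6% were internal. A read from nt 1 to this end is 67 nt long in C, 68 in F and 69 in H, at or near the longest length held. An effect of this limit on the share was not tested. At 5 nt it was 216 beside 31. At 17 nt, 225 internal reads stood beside 1230 from nt 1 (15.5% internal). To compare the profiles, only starts up to the first A were used, from which all 15 ends give a read of at least 40 nt. The upper length limit, which reads from nt 1 approach at the outermost ends, was not varied in this comparison. T loop, T stem and acceptor ends divide the same reads, so their tests are not independent. In 16 of 18 libraries a smaller part of the i-tRF than of the 5′-tRF ended in the T loop, with means of 29.4% and 45.4% (two-sided exact sign-flip permutation test, p = 0.0014, adjusted over 7 such tests to 0.0096, chosen after the data were seen). The difference of -15.9 points was -13.8 in libraries of at least 1000 reads and -16.7 without HC replicate 1. T stem ends were more frequent in the i-tRF by 9.61 points, in 12 of 18 libraries (exact permutation test, adjusted p = 0.0373). That call was lost without HC replicate 1 (9.12), without CF replicate 3 (6.75) and in libraries of at least 1000 reads (4.53, exact permutation test, adjusted p = 0.231). Acceptor ends differed by 6.33 points (exact permutation test, adjusted p = 0.320), and by 9.24 in those libraries (exact permutation test, adjusted p = 0.0205).

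Ends between a pyrimidine and an A, which are 4 of the 15 positions and include those 14 and 5 nt before the mature end, held 781 reads (40.6%). The share was 53.4% of C, 21.5% of F and 30.0% of H reads, pooled. For the starts up to the first A, the mean over libraries was 35.2% of i-tRF, against 27.4% of 5′-tRF (exact permutation test, adjusted p = 0.0344). Without HC replicate 1, without CF replicate 3 and in libraries of at least 1000 reads the differences were 6.82, 5.81 and 5.31 points, and the adjusted p was 0.0688, 0.0516 and 0.0825 by exact permutation test.

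Starts were compared with those of the internal fragments that end at the site, which held 16142 reads. From nt 2 to the last base of the T run, 36.6% of the i-tRF began at the first T, against 55.9% of the site-ended fragments, and the share was smaller in 16 of 18 libraries (exact permutation test, adjusted p = 0.0373). It was smaller in all 14 libraries with 1000 reads or more, by -29.2 points (exact permutation test, adjusted p = 0.0009). Without HC replicate 1 it was -17.8 (exact permutation test, adjusted p = 0.0694). Starts at nt 2 were more frequent, at 10.2% against 5.46% (exact permutation test, adjusted p = 0.0344, without HC replicate 1 0.0677). Starts at nt 7 made up 8.51% and 9.22% (exact permutation test, adjusted p = 0.436).

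Strains of the same mtDNA type were compared for their nuclear genome, where 3 libraries against 3 cannot give a p below 0.1. None of the 21 differences passed. CF and FF did not overlap in T stem-ended i-tRF, at 0.826%, 0.762% and 1.06% against 0.104%, 0.174% and 0.367%, nor in the T loop share of i-tRF, at 24.5%, 21.9% and 0 against 59.0%, 43.0% and 44.7% (exact permutation test, p = 0.1 each, adjusted p = 0.7). CF replicate 3 held 2 of these reads. In edgeR, 0 of 7 end pools were called for HC against CC (0 at an unadjusted p under 0.05, 0.0% of all end pools called), CH against HH (0, 0.0%) and CF against FF (2, 2.5%), and DESeq2 called 0. Of the 5 start pools, 0 were called for HC against CC (1 at an unadjusted p under 0.05, 0.0% of all) and CH against HH (0, 0.0%) in edgeR, and DESeq2 called 0. For CF against FF 2 were called, with 51.0% of all start pools, at positions 13 and 16 (2.67 ± 1.08 and 2.72 ± 1.13, SE, edgeR adjusted p = 0.0448 and 0.0479). Both calls were lost under TMM scaling (1.23 and 1.25) and DESeq2 (0.60 and 0.51). Of the 18 fits that left out a library, position 13 was called only in those without CC replicate 3, HC replicate 1, HC replicate 3, HH replicate 2 or CF replicate 2, and position 16 only in those without HC replicate 1 or CF replicate 2. Without CF replicate 1 position 16 was 1.16.

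Wild-type and MNX libraries were compared within mtDNA types. The largest difference was in the internal share of reads with these ends, at -11.9 percentage points for wild type minus MNX (exact permutation test over 8000 arrangements, p = 0.0562, adjusted over 7 measures to 0.394). The interaction of nucleus and mtDNA in CC, HC, CH and HH gave adjusted p of 0.955 for all 7 measures (exact permutation test, 400 arrangements). Within an mtDNA type, MNX status, the nuclear genome and the library total cannot be told apart, since every MNX library held fewer reads than every wild-type library of its mtDNA type.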

How the data were processed

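Small RNA from mouse liver was pooled and pretreated by the authors to remove base methylation and modified ends that may hinder the detection of tRF, and sequenced with unique molecular identifiers (UMI). The deposited values are raw counts of deduplicated reads for each mt-TR sequence in each of 18 libraries. The authors aligned reads with Bowtie, without gaps or mismatches, to the mature mt-TR of each strain and removed sequences that map elsewhere in mm10. The submitters' processing notes list FastQC 0.12.1, UMI-tools 1.1.6, cutadapt 5.0, BWA 0.7.18 and Bowtie 1.3.1. A sequence read unlike its reference, by a retained modification for example, is not in the table.

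Rows were decoded from their dashes to a start and an end, and homologous fragments of the 3 types were joined in an alignment whose gaps stood leftmost in each run. The mature sequence of C is that of GENCODE M21 for mm10 plus CCA, and those of F and H were taken from the study. Library size was the table total. For shares of reads, the difference in means was tested by exact permutation, two-sided, with Benjamini-Hochberg adjustment within each family of tests (Python 3.11.15, scipy 1.17.1). Pools of reads by end, by start and by single fragment were fitted over the whole table with edgeR 4.0.16 (quasi-likelihood test, filterByExpr with a minimum count of 10, Benjamini-Hochberg adjustment over all pools, threshold 0.05). DESeq2 1.42.0 and TMM scaling were alternatives. Start positions that some types lack were left out of counts of start pools. Wilson intervals are at 95% and cover counting error only.

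Fragments were named as the 3 highest by mean share in each mtDNA type, the 8 highest over all libraries, the highest at each of the 3 most used ends, and every pool called. The fragments, measures and lists were chosen with earlier results of these data known. Tests against 5′-tRF and site-ended fragments, starts up to the first A, the merging of CH replicates 1 and 2 and the first-A share were added after the data were seen. Procedures were tested on simulated data.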

Additional observations from a re-analysis of the deposited data

Results flagged for a closer look

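In 7 of 21 tests, 1 library lay far from the others of its mtDNA type by Dixon's criterion, where chance gives about 1 in 20. HC replicate 1, with 733 reads, did so in the share of these i-tRF (7.37%), of those ending in the T loop (1.64%), of those ending in the T stem (3.55%) and of those ending in the acceptor strand (2.18%), which are not independent measures. CF replicate 1 did so in the share of i-tRF (2.92%) and of acceptor-ended i-tRF (1.38%). In CH replicate 2, 83.3% of reads with these ends had an internal start, which rests on 5 reads against 1.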

How the results depend on the processing

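Counts limited most results, since 4 libraries held fewer than 1000 reads and 2 to 7 reads of these i-tRF stood behind the lowest. The differences of ends 4 nt before the mature end between H and both other types were called in all 23 alternatives run for them. Those did not include fragments listable in every type, starts up to the first A or reads past nt 1 as the denominator. The 4 share differences called between mtDNA types were run under these settings too and were not called in all of theirs, so the 2 sets of alternatives are unlike. In the order share of i-tRF (F minus H), acceptor-ended share (F minus H), internal share (F minus H) and early starts (C minus H), they were -1.06, -0.593, -24.4 and 15.5 with ends 5 to 17 nt before the mature end, -1.25, -1.23, -20.7 and 12.1 for fragments listable in every type, -1.30, -0.80, -26.1 and 14.3 with starts up to the first A, and -2.53, -1.54, -22.8 and 9.41 in libraries of at least 1000 reads, none of them called. Of 21 tests, 0 passed under these alternatives, except for 1 among the listable fragments, where T loop ends as a share of i-tRF differed by 17.3 (C minus H). Merging CH replicates 1 and 2 gave 9.51 for that share, called, and 15.1 for early starts, not called. With reads past nt 1 as the denominator, the share of i-tRF was 0.243 for C minus H, of the opposite sign, and -1.12 for F minus H. The cause was not tested.

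Uncalled differences also changed sign. For fragments listable in every type, T loop-ended shares were 0.266 for C minus H and 0.0457 for F minus H. In libraries of at least 1000 reads, C minus F was -0.0731 for all i-tRF, -0.0806 for T loop ends and -0.0841 for acceptor ends, and C minus H was -0.681 for T stem ends. On the log2 scale of the share plus 0.1%, C minus F was 0.98 for early starts and 0.98 for T loop ends as a share of i-tRF.

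Called end pools numbered 2 and 5 for C against H and 5 and 6 for F against H with no filter and in libraries of at least 1000 reads. Called start pools for C against H numbered 2 under TMM scaling, 2 under DESeq2, 4 with no filter, 7 in libraries of at least 1000 reads and 1 with the gaps at the right. For F against H they numbered 1 under TMM scaling, 1 under DESeq2, 6 with no filter and 6 in libraries of at least 1000 reads, and positions 13 and 14 were 0.16 and 0.10 under DESeq2. For C against F it was 0 with the gaps at the right. For CF against FF it was 0 under TMM scaling, DESeq2, no filter and libraries of at least 1000 reads, 1 with the gaps at the right and 1 with only positions in all types. Without a filter, 6 single fragments were called over 6 comparisons. More pools are tested with no filter. The share of all pools called under each of these settings is not given here, so these counts are no result about the fragments. With the main settings, 56.9% of all start pools were called for C against H, 52.9% for F against H and 51.0% for CF against FF.

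The replicate numbers did not pair the libraries, with a correlation of deviations from -0.504 to 0.585 in 45 pairs and 7 of 18 libraries nearest their own number. With the replicate block the 4 share differences were unchanged, at -2.08, -1.50, -32.1 and 18.1. Their adjusted p was 0.0648 each (exact permutation test within replicate numbers), with 0 of 21 tests passing. Fewer arrangements are possible within replicate numbers, which raises the smallest p that this test can give. With the block, 0 start pools were called for F against H and for CF against FF.

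Without 1 library at a time, F minus H ran from -2.41 to -1.85 for the share of i-tRF, -1.69 to -1.38 for acceptor ends, -35.7 to -26.2 for the internal share and 20.8 to 32.1 for early starts. C minus H ran from -1.50 to -1.09 for acceptor ends, -26.1 to -15.9 for the internal share, 15.1 to 21 for early starts, 5.51 to 13.5 for T loop ends as a share of i-tRF, -0.258 to 0.0444 for T loop-ended reads and -0.346 to 0.324 for T stem-ended reads. C minus F ran from -0.0251 to 1.36 for the share of i-tRF, -0.00867 to 0.293 for T loop, -0.0103 to 0.660 for T stem and -0.00615 to 0.491 for acceptor ends, and from -11.6 to 0.205 for T loop ends as a share of i-tRF. From 0 to 5 of 21 tests passed. End pools called ran from 1 to 3 for C against H, 1 to 4 for F against H, 0 to 1 for C against F and 0 to 1 for CF against FF, and start pools from 1 to 5, 1 to 5, 0 to 1 and 0 to 3. These counts include 2 to 5 start pools that passed the filter only once a library was left out, and of the 5 start pools tested with all libraries 0 to 2, 0 to 2, 0 to 1 and 0 to 2 were called. Single fragments called ran from 0 to 2. The share of all pools called in these fits is not given, so the ranges are likewise no result about the fragments. The end 14 nt before the mature end ran from -2.60 to 1.51 for F against H, and start positions 13 and 14 from -2.13 to 2.0 and -2.17 to 1.75, with the positive values without CH replicate 3.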

Other observations

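Values outside the comparisons above are given without explanation. Starts at the first A made up 20.7% ± 10.1 of these i-tRF in H, 19.1% ± 17.1 in C and 8.36% ± 6.71 in F (SD, n = 6), and F minus H was -12.3 percentage points (exact permutation test, adjusted p = 0.104, chosen after the data were seen). Among reads that ended 4 or 5 nt before the mature end, those ending 4 nt before it made up 49.0% ± 29.9 in C (n = 6), 60.5% ± 19.8 in F (n = 5, since CF replicate 3 had no such read) and 75.1% ± 21.3 in H (n = 6, SD throughout), with no difference larger than the spread between libraries (exact permutation tests, smallest adjusted p 0.351, also chosen after the data were seen).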
